A study of Mus musculus with 12 samples.

Results

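The genes described here serve adrenergic and cholinergic signalling in the heart: dopamine beta-hydroxylase (Dbh), the monoamine oxidases Maoa and Maob, adrenergic receptors, the receptor kinase Grk5, the 5 muscarinic acetylcholine receptors and Ramp1, a subunit of the receptor for the neuropeptide CGRP. They were taken by symbol, 18 of the 51912 genes in the deposited table, and 8 of them (Dbh, Adrb1, Adra1a, Adra1b, Grk5, Chrm2, Maoa and Ramp1) were named at the outset. The choice used no measured value as a criterion, although earlier results of these data were known. RNA was sequenced from untreated heart ventricle of mice labelled LCHADD (long-chain 3-hydroxyacyl-CoA dehydrogenase deficiency, a disorder of mitochondrial fatty acid oxidation) or WT, in 4 groups of 3 libraries: LCHADD females, LCHADD males, WT females and WT males. The series concerns acute arrhythmia in this mouse model. The labels give no allele, strain or age, and do not say whether a library was 1 animal or a pool, so p-values measure only the spread between these libraries, which may be technical.

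Noradrenaline released from sympathetic nerves, and adrenaline from the blood, act on the cardiomyocyte through beta-adrenergic receptors, which couple to Gs and raise cyclic AMP, and through alpha1-adrenergic receptors, which couple to Gq and phospholipase C. Acetylcholine from the vagus acts mainly on the M2 muscarinic receptor, which couples to Gi, lowers cyclic AMP and opens the GIRK potassium channel. Receptor kinases and arrestins switch off stimulated receptors, while monoamine oxidases take part in inactivating the transmitter.

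Values are normalised reads, the count of a gene scaled by a size factor for each library. The libraries held between 15613668 and 23174936 reads, and the mitochondrial share of reads ran from 31.0% to 37.9% in LCHADD libraries and from 27.5% to 32.7% in WT libraries. A gene was tested where at least 3 of the 12 libraries reached 10 normalised reads, which 13865 genes did. Differences are log2(normalised reads + 1), LCHADD minus WT, ± standard error, from limma fitted across all tested genes, and a gene passed where its Benjamini-Hochberg adjusted p was under 0.05. Hadha, the gene of the deficient enzyme, differed by 0.17 ± 0.05 on the log2 scale (adjusted p = 0.013), which does not check the genotype labels, since a total read count need not show a changed allele. The tissue label was checked on marker genes: 6 ventricular cardiomyocyte markers summed to 535205 to 923428 normalised reads in LCHADD libraries and 978786 to 1062078 in WT libraries. The 5 atrial markers summed to 232 to 368 in LCHADD libraries and 179 to 275 in WT libraries. Of these, Myl7 and Sln did not exceed 5.47 and 1.14, while Bmp10 was higher in LCHADD hearts. All 6 cardiomyocyte markers were lower in LCHADD hearts in the mean of both sexes, with a median log2 difference of -0.45. So were all 6 fibroblast markers, with a median of -0.47, beside 20.6% of all tested genes called lower. In females all 6 of each set passed as lower, beside 17.2% of all tested genes. In males 2 of each set did, beside 7.77%. In bulk tissue, fewer cells of a type and less RNA per cell cannot be told apart.

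In the mean of both sexes, 10 of the 12 tested genes passed. Dbh, Maob, the 3 alpha1-adrenergic receptors, Adrb1, Chrm2 and Ramp1 were lower in LCHADD ventricles (8 genes), and Maoa and Grk5 were higher (2 genes). Over all tested genes 20.6% were called lower and 20.3% higher. In females 8 were lower and 2 higher, beside 17.2% and 16.7% of all genes. In males 5 were lower (Dbh, Maob, Adra1b, Chrm2 and Ramp1) and 2 higher (Maoa and Grk5), beside 7.77% and 7.71% of all genes. The median log2 difference over the 12 genes was -1.10 in females and -0.64 in males, and -0.76 over both sexes, where the medians of all tested genes lay at 0.00. With values rescaled to nuclear reads alone, the female calls over all genes split into 2884 higher and 1953 lower, against 2314 and 2378 as deposited, and 10 of the 12 genes still passed in females. For 7 of the 12 genes (Dbh, Maoa, Maob, Adra1b, Adrb1, Chrm2 and Ramp1) the 6 LCHADD libraries did not overlap the 6 WT libraries, as for 19.7% of all genes.

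**Figure D1:**
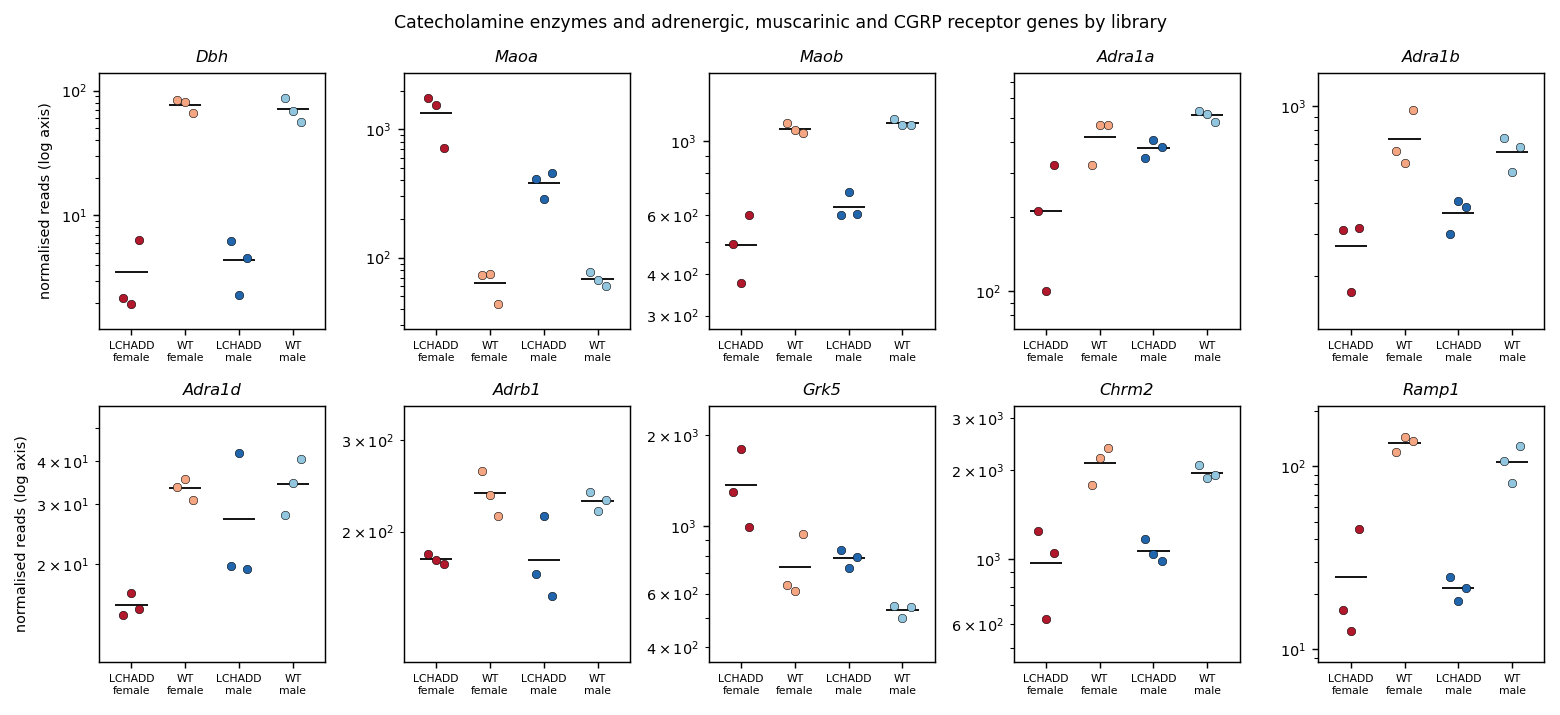
Normalised reads (log axis, own scale in each panel) of 10 genes in each library, in LCHADD females, WT females, LCHADD males and WT males from left to right; points are libraries and bars are group means (n = 3). Dbh and Ramp1 lie low and Maoa lies high in all 6 LCHADD libraries, whereas the genotypes overlap for Adra1a, Adra1d and Grk5.

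**Figure D2:**
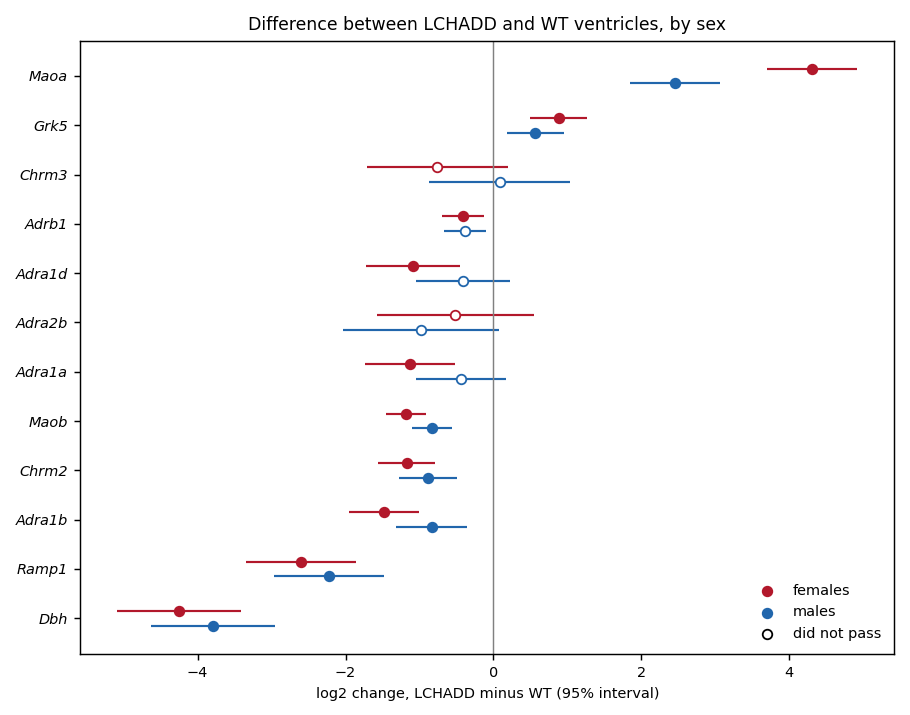
Log2 difference, LCHADD minus WT, of the 12 tested genes in females (red) and males (blue), ordered by the mean of both sexes; lines are 95% intervals of the limma fit and open points did not pass. Maoa stands at the top, Dbh and Ramp1 at the bottom, and the female and male intervals of Maoa do not overlap.

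Dbh, the enzyme that converts dopamine to noradrenaline, had the largest fall of the 12 genes. It had 2.19, 1.94 and 6.34 normalised reads in LCHADD females and 6.25, 2.29 and 4.55 in LCHADD males, against 84.5, 81.5 and 65.9 in WT females and 87.7, 69.0 and 56.2 in WT males. Every LCHADD library lay below every WT library, the highest LCHADD value being 6.34 and the lowest WT value 56.2. The log2 difference was -4.25 ± 0.39 in females (limma adjusted p = 1.6e-06) and -3.80 ± 0.39 in males (adjusted p = 1.6e-05). In the mean it was -4.02, the 4th largest fall among the 13865 tested genes. The LCHADD libraries held few reads: 10 in the 3 LCHADD females against 279 in the 3 WT females, and 12 in the 3 LCHADD males against 209 in the 3 WT males. Corrected for depth, the LCHADD level was 0.0446 of WT in females (95% counting interval 0.0212 to 0.0833) and 0.0629 in males (0.0320 to 0.112), intervals that cover counting error only. Dbh reached 10 normalised reads in WT libraries alone, so it was tested because of its WT level; with 5 reads added in place of 1, the log2 differences were -3.31 in females and -3.02 in males.

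Of 11 other genes for catecholamine synthesis and storage, 6 were too low to test. Th, which makes the dopamine precursor and is the rate-limiting step, was at 0 in all 12 libraries. The noradrenaline transporter Slc6a2 did not exceed 7.97 normalised reads. Ddc, which turns that precursor into dopamine, was the only gene of this list to pass. That is 1 of 5 tested, near the 20.6% of all tested genes called lower. Ddc had 11.3 ± 1.44 normalised reads in LCHADD and 31.9 ± 9.97 in WT (SD, n = 6 each), a log2 difference of -1.36 ± 0.22 (adjusted p = 0.00016). Gch1, which makes a cofactor of Th, had a log2 difference of 0.02 (adjusted p = 0.91), and Cyb561, a vesicle membrane cytochrome, of -0.12 (adjusted p = 0.45); neither passed. Without LCHADD female replicate 1, 2 genes of this list passed. Of 9 sympathetic neuron markers, 2 were tested in these ventricles, Uchl1 higher (1.24) and Stmn2 lower (-0.43) in LCHADD, and Phox2a did not exceed 5.99 normalised reads. The 9 summed to 231 to 509.7 in LCHADD libraries and 191 to 245 in WT libraries. Of 6 conduction system markers 4 were tested, and 3 (Hcn4, Cntn2 and Gja5) passed as lower, beside 20.6% of all tested genes. Tbx3 did not pass and Isl1 was at 0. The 6 summed to 191 to 295 in LCHADD libraries and 471 to 597 in WT libraries. Hcn4, the pacemaker channel, had a log2 difference of -2.32 and Cntn2, a Purkinje fibre adhesion protein, of -2.65. Of 7 Schwann cell markers 5 were tested and 3 were lower, beside the same share, with sums of 81.3 to 129.7 in LCHADD and 145 to 182 in WT. The part of these cells in the Dbh result was not tested.

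The stretches before the start sites of Dbh, Maoa and Ramp1 are shown because these genes moved furthest; they come from RefSeq on GRCm38.p6 (13 of the 18 genes matched an entry), hold the 250 bases before the annotated start and are given 5′ to 3′ on the plus strand, which is the coding strand of all 3 genes. Capitals mark matches on either strand to GGGCGG, the GC box bound by Sp factors, or TGACG, the core of a cyclic AMP response element. These letters occur in 32.7% and 17.8% of the 32851 windows of the same length before all annotated starts. TGATGNAA, the core of the amino acid response element bound by ATF4, was searched too and is in 3.45% of all windows.
Dbh, chr2:27165257-27165506: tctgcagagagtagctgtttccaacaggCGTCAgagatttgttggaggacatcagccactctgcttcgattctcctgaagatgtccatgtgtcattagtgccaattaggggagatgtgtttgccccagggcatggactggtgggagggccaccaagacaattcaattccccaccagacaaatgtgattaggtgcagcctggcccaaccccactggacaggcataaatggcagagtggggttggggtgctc
Maoa, chrX:16619448-16619697: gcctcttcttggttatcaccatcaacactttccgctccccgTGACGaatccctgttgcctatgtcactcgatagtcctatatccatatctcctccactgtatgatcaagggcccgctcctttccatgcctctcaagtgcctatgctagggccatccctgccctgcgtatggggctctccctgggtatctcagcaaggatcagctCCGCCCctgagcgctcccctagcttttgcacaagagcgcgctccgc
Ramp1, chr1:91179572-91179821: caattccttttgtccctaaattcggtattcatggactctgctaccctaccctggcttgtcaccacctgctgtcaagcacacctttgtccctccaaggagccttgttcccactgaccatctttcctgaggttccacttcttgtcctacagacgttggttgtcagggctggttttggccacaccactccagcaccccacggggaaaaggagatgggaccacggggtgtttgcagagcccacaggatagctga
In the Dbh window the single match was TGACG on the minus strand at -222, counted from the start site. The Maoa window held a GC box at -46 and TGACG at -209. None of the 3 motifs was in the Ramp1 window, and TGATGNAA was in none of the 3 windows.

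The 2 monoamine oxidases, outer mitochondrial membrane enzymes that deaminate noradrenaline, dopamine and serotonin, went in opposite directions. Maoa had 1749.7, 1554 and 720.4 normalised reads in LCHADD females and 413, 287 and 453 in LCHADD males, against 73.6, 74.6 and 43.6 in WT females and 77.7, 66.6 and 60.5 in WT males. LCHADD females were highest, LCHADD males lay between, and the lowest LCHADD library, at 287, was above the highest WT library, at 77.7. The log2 difference was 4.31 ± 0.29 in females, a 19.8-fold higher fitted level (adjusted p = 1.3e-07), and 2.46 ± 0.29 in males, 5.49-fold (adjusted p = 5.2e-05). The female minus male difference of these changes was 1.85 ± 0.40 and did not pass (adjusted p = 0.14). It passed without LCHADD female replicate 3, which had the lowest Maoa of the LCHADD females, at 2.25 (adjusted p = 0.0044). Maoa was the 43rd largest rise of 13865 genes in the mean of both sexes.

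Maob had 491, 377 and 600.0 normalised reads in LCHADD females and 602, 702 and 604 in LCHADD males, against 1133, 1082 and 1057 in WT females and 1161, 1119.6 and 1115 in WT males. All LCHADD libraries were below all WT libraries, and the WT libraries were tight. Its log2 difference was -1.18 ± 0.13 in females (adjusted p = 6.9e-06) and -0.83 ± 0.13 in males (adjusted p = 0.00048). Per kilobase of annotated exon, the ratio of Maoa to Maob was 2.39, 2.76 and 0.804 in LCHADD females and 0.459, 0.274 and 0.502 in LCHADD males, against 0.0434, 0.0461 and 0.0276 in WT females and 0.0448, 0.0398 and 0.0363 in WT males. Maoa thus exceeded Maob in LCHADD females 1 and 2 and in no other library. The summed level of both, again per kilobase, was 596, 508 and 388 in LCHADD females and 315, 321 and 325 in LCHADD males, against 424, 406 and 389 in WT females and 435, 417 and 414 in WT males. In males this sum was lower in every LCHADD library than in every WT library; in females LCHADD replicates 1 and 2 were above all WT females and replicate 3 just below them.

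**Figure D3:**
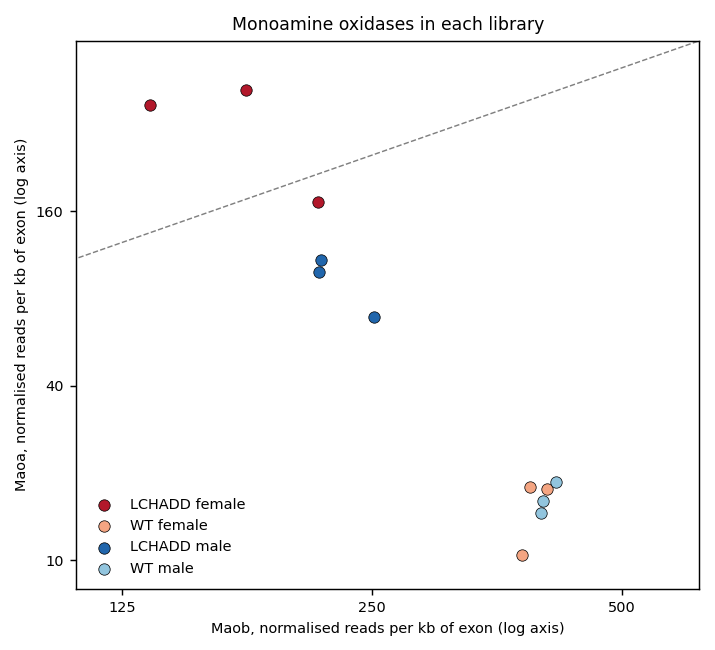
Maoa against Maob in each library, in normalised reads per kilobase of exon on log axes; the dashed line marks equal levels. The WT libraries form 1 group at high Maob and low Maoa, the LCHADD males lie between, and LCHADD females 1 and 2 are above the line.

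Of 8 genes listed for extraneuronal uptake and later breakdown, 6 were tested. In the mean of both sexes 1 was higher and 3 were lower, beside 20.3% and 20.6% of all tested genes. Akr1a1, an aldehyde reductase acting after the monoamine oxidases, was higher (0.41 ± 0.05, adjusted p = 1.5e-05). Aldh2, the mitochondrial aldehyde dehydrogenase of the same step, was lower (-0.40 ± 0.05, adjusted p = 3.8e-05), as were the sulphotransferase Sult1a1 (-0.81 ± 0.10, adjusted p = 2.0e-05) and the extraneuronal monoamine transporter Slc22a3 (-0.38 ± 0.14, adjusted p = 0.042). The Slc22a3 call was lost in 11 of 22 alternative settings.

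All 3 alpha1-adrenergic receptor genes were lower in LCHADD hearts in the mean of both sexes. Adra1b had 311, 173 and 316 normalised reads in LCHADD females and 299, 409.9 and 385 in LCHADD males, against 657, 585 and 965 in WT females and 739, 536 and 679 in WT males. The highest LCHADD value, 409.9, was below the lowest WT value, 536. Its log2 difference was -1.48 ± 0.22 in females (adjusted p = 0.00015) and -0.84 ± 0.22 in males (adjusted p = 0.020). Without LCHADD female 2 and WT female 3 the female difference was -0.98 and still passed. The male call was lost without LCHADD male 1, WT male 1 or WT male 3 (adjusted p = 0.098, 0.088 and 0.072).

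Adra1a had 210.0, 100.01 and 324 normalised reads in LCHADD females and 345, 405 and 380.1 in LCHADD males, against 323, 469 and 468 in WT females and 535, 518 and 481 in WT males. LCHADD female 2 was the lowest library and LCHADD female 3 just reached the lowest WT female; all LCHADD males lay below all WT males. Adra1a differed by -1.12 ± 0.29 on the log2 scale in females (adjusted p = 0.0071) and -0.44 ± 0.29 in males (adjusted p = 0.33); over both sexes it was -0.78 ± 0.20 (adjusted p = 0.0062). Without LCHADD female 2 the female difference was -0.66, and without that library and WT female 3 it was -0.58 in females and -0.51 in the mean; each still passed. The female value had an adjusted p of 0.057 with female libraries alone, and the male value passed without LCHADD female 2, whose spread the fit shares (adjusted p = 0.036), and with male libraries alone (adjusted p = 0.0019). Adra1d, mostly a vascular subtype, had 14.2, 16.5 and 14.8 normalised reads in LCHADD females and 19.8, 42.4 and 19.3 in LCHADD males, against 33.6, 35.5 and 30.8 in WT females and 27.9, 34.5 and 40.6 in WT males. Its LCHADD females were all below the WT females, while LCHADD male 2 was the highest of the 12 libraries. It passed in females (-1.09 ± 0.30, adjusted p = 0.011) and in the mean (-0.75 ± 0.21, adjusted p = 0.011) but not in males (-0.41, adjusted p = 0.39).

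Of the beta-adrenergic receptors, Adrb1, the main subtype of the cardiomyocyte, had 182, 177 and 173 normalised reads in LCHADD females and 166, 214 and 150.2 in LCHADD males, against 261, 235 and 215 in WT females and 238, 219 and 230.0 in WT males. The LCHADD libraries were lower throughout, but LCHADD male 2 came close to the lowest WT female. The log2 difference was -0.41 ± 0.13 in females (adjusted p = 0.025) and -0.39 ± 0.13 in males (adjusted p = 0.060, not passing); over both sexes it was -0.40 ± 0.09 (adjusted p = 0.0031), a fitted level 1.32-fold lower. The female call was lost without WT female 1 or 2 (adjusted p = 0.11 and 0.061), and the male value passed without LCHADD female 2 or LCHADD male 2 (adjusted p = 0.036 and 0.013). Adrb3, with 4 reads over all libraries, was not tested. Of the alpha2 receptors, which restrain transmitter release, Adra2b had 8.68 ± 3.70 normalised reads in LCHADD and 14.3 ± 4.02 in WT; its mean difference of -0.75 ± 0.35 did not pass (adjusted p = 0.10) but passed without LCHADD male 2 (adjusted p = 0.040). Adra2a and Adra2c, with 3 and 49 reads in all, were not tested.

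Per kilobase of annotated exon, Chrm2 had the highest level of the receptor genes in both genotypes, 168 ± 35.5 normalised reads in LCHADD and 337 ± 36.3 in WT (SD, n = 6 each). Adra1b came next, with 93.3 ± 24.5 in LCHADD and 205 ± 44.6 in WT. The ranges of these 2 genes did not overlap among WT libraries and overlapped among LCHADD libraries. Adrb1 had 52.3 ± 6.28 in LCHADD and 68.9 ± 4.87 in WT, and Adra1a 33.7 ± 13.4 in LCHADD and 53.4 ± 8.58 in WT. Among WT libraries the ranges of Adrb1 and Adra1a did not overlap, 63.5 to 77.3 and 37.0 to 61.3; among LCHADD libraries they overlapped, 44.4 to 63.3 and 11.5 to 46.4. Adra1d had 11.1 ± 5.60 in LCHADD and 17.8 ± 2.29 in WT. The lowest tested receptors were Adra2b, at 2.16 ± 0.921 in LCHADD and 3.57 ± 1.00 in WT, and Chrm3, at 1.55 ± 0.732 in LCHADD and 1.98 ± 0.777 in WT.

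Grk5, a kinase that phosphorylates active adrenergic receptors and also acts in the nucleus, was higher. It had 1300.2, 1794 and 991 normalised reads in LCHADD females and 837, 729 and 791 in LCHADD males, against 639, 614 and 945 in WT females and 547, 497 and 544 in WT males. All LCHADD females were above all WT females, and all LCHADD males above all WT males, but WT female 3 exceeded every LCHADD male. Grk5 differed by 0.88 ± 0.18 on the log2 scale in females (adjusted p = 0.0017) and 0.57 ± 0.18 in males (adjusted p = 0.045); over both sexes it was 0.72 ± 0.13 (adjusted p = 0.00037). The male call sat at the threshold and was lost without any 1 of the 6 male libraries or without LCHADD female 1 or WT female 1, with adjusted p from 0.054 to 0.14, and under edgeR (0.053) and with no filter on low values (0.060). Grk5 overlaps Zfp950 on the opposite strand; the use of strand in counting is not given in the sources used here, so reads from the overlap cannot be told apart, and the largest count of Zfp950 in any library was 251. Grk2, the other main receptor kinase of the heart, did not pass (-0.12 ± 0.06, adjusted p = 0.11). The ratio of Grk5 to Grk2 per kilobase was 0.405 to 0.834 in LCHADD libraries and 0.256 to 0.447 in WT libraries, overlapping only through WT female 3. Of the 6 listed receptor kinases and arrestins 3 passed in the mean, each lower, beside 20.6% of all genes: Grk3 (-0.39), Grk6 (-0.40) and the arrestin Arrb1 (-0.42 ± 0.08, adjusted p = 0.00063). The other arrestin, Arrb2, had a difference of 0.24 (adjusted p = 0.099). Of these 6 genes, 3 were lower and 1 higher in females, beside 17.2% and 16.7% of all tested genes. In males 0 were lower and 0 higher, beside 7.77% and 7.71%.

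Downstream of the beta receptors, 15 of 30 listed genes of the Gs, cyclic AMP and protein kinase A chain were lower and 1 was higher in the mean of both sexes, beside 20.6% lower and 20.3% higher of all tested genes, with a list median of -0.23. In females 12 were lower and 1 higher, beside 17.2% and 16.7% of all tested genes. In males 3 were lower and 1 higher, beside 7.77% and 7.71%. The greatest difference in the mean was in Pde2a, a phosphodiesterase of cyclic AMP and cyclic GMP, at -2.84 ± 0.39 (adjusted p = 3.8e-05), with 22 reads in the 6 LCHADD libraries and 189 in the 6 WT libraries. Only 1 LCHADD library reached 10 normalised reads, so Pde2a too was tested because of its WT level, and with 5 reads added its difference was -1.99. The protein kinase A inhibitor Pkia (-0.54, adjusted p = 2.7e-05), the phosphodiesterase Pde3a (-0.43, adjusted p = 7.6e-05) and the catalytic subunit Prkaca (-0.40, adjusted p = 0.00034) were lower too. Pde3b was the gene that was higher (0.56). Of the main cardiac adenylyl cyclases, Adcy6 was lower (-0.21, adjusted p = 0.011) and Adcy5 did not pass (-0.06, adjusted p = 0.58). The regulatory subunit Prkar1a (0.06, adjusted p = 0.45) and the anchor Akap1 (adjusted p = 0.99) did not pass. Gnas, which encodes the Gs alpha subunit, was listed at only 14.8 to 37.0 in LCHADD libraries and 17.1 to 35.5 in WT libraries; its locus has overlapping transcripts, which can be split or dropped in counting, so this level is uncertain.

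Downstream of the alpha1 receptors, 3 of 16 tested genes of the Gq, phospholipase C and protein kinase C chain were lower and 1 was higher, which for the lower genes is near the 20.6% of all tested genes and for the higher ones under their 20.3%. Prkcd, a diacylglycerol-activated kinase, was higher (0.65 ± 0.11, adjusted p = 0.00018). The phospholipase Plcb3 (-0.39, adjusted p = 0.00049) and the inositol trisphosphate receptors Itpr1 (-0.39, adjusted p = 0.0011) and Itpr2 (-0.33, adjusted p = 0.0032) were lower. Gna11 (-0.11, adjusted p = 0.11) and Plcb4 (-0.18, adjusted p = 0.080) did not pass, and without LCHADD female 2 the number passing in this list was 7. Of 11 contractile and calcium-handling proteins that protein kinase A phosphorylates or that modify its effect, 6 were lower and 1, Rrad, was higher, beside the same shares of all genes. The sodium pump regulator Fxyd1 (-0.43, adjusted p = 3.4e-06), troponin I (Tnni3, -0.51, adjusted p = 6.8e-06), phospholamban (Pln, -0.47, adjusted p = 0.0020) and the potassium channel Kcnq1 (-0.63, adjusted p = 0.0020) were among those lower. Ryr2, the calcium release channel, and Mybpc3 did not pass (-0.24, adjusted p = 0.12, and -0.05, adjusted p = 0.71). Tnni3 is also 1 of the 6 cardiomyocyte markers.

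**Figure D4:**
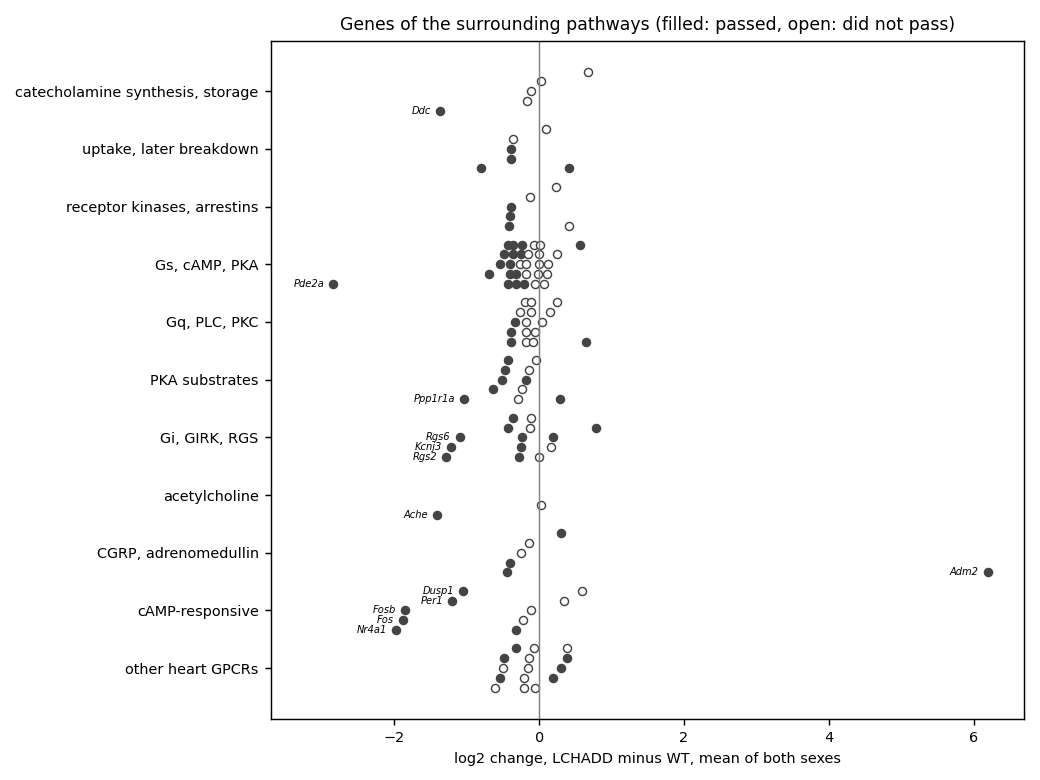
Log2 difference, LCHADD minus WT, in the mean of both sexes for each tested gene of 11 lists around the described genes; filled points passed and open points did not. Most points lie within 1 log2 unit of 0, with Pde2a, Ddc, Ache, Kcnj3, Rgs2 and immediate early genes further left; Adm2 is at the far right, where its position depends on the 1 read added, since it was at or near 0 in WT.

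Among the muscarinic receptors, Chrm2, the receptor through which the vagus slows the heart, had 1241, 623 and 1044 normalised reads in LCHADD females and 1168, 1036 and 981 in LCHADD males, against 1782, 2199.7 and 2372 in WT females and 2076, 1886 and 1923 in WT males. No LCHADD library reached a WT library, and LCHADD female 2 was the lowest. Chrm2 differed by -1.17 ± 0.18 on the log2 scale in females (adjusted p = 0.00019) and -0.89 ± 0.18 in males (adjusted p = 0.0043). In the mean the fitted level was 2.04-fold lower. The call held in both sexes under every alternative run. The long non-coding gene 9330158H04Rik overlaps Chrm2 on the opposite strand and moved with it (-1.14, adjusted p = 1.3e-05); its largest count was 260 reads, and reads in the overlap cannot be told apart either. Chrm3 had 9.68 ± 4.58 normalised reads in LCHADD and 12.4 ± 4.86 in WT and did not pass (-0.34 ± 0.32, adjusted p = 0.42). Chrm1, Chrm4 and Chrm5 had 4, 11 and 2 reads over the 12 libraries and were not tested.

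Along the path from the M2 receptor to the GIRK channel, 8 of 14 listed genes were lower and 2 higher in the mean of both sexes, beside 20.6% and 20.3% of all tested genes. Kcnj3, a subunit of the GIRK channel, was at 468, 188 and 655 normalised reads in LCHADD females and 506, 607 and 634 in LCHADD males, against 1058, 1107 and 1089 in WT females and 1109, 1168 and 1067 in WT males, with a log2 difference of -1.21 ± 0.21 (adjusted p = 0.00026). Its partner subunit Kcnj5 was lower by less (-0.26, adjusted p = 0.0031). The inhibitory G protein subunit Gnai2 was lower (-0.44, adjusted p = 2.2e-06), whereas Gnai1 was higher (0.78, adjusted p = 0.00051). Rgs6, which ends Gi signalling in the sinoatrial node of mice, was lower (-1.10 ± 0.17, adjusted p = 0.00011), as was Rgs2, which acts on Gq (-1.28 ± 0.14, adjusted p = 3.5e-06). Gnb2 (-0.11, adjusted p = 0.13) and Gnb5 (-0.01, adjusted p = 0.93) did not pass. Acetylcholinesterase (Ache) was lower, with 54 reads over the 6 LCHADD libraries and 173 over the 6 WT libraries and a log2 difference of -1.41 ± 0.32 (adjusted p = 0.0026), and butyrylcholinesterase (Bche) did not pass (0.02, adjusted p = 0.86). The choline acetyltransferase Chat and the acetylcholine vesicle and choline transporters Slc18a3 and Slc5a7 were at 0 in all libraries.

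Ramp1, which joins the calcitonin-receptor-like receptor Calcrl to form the CGRP receptor, had the next largest fall after Dbh among the 12 genes. It had 16.4, 12.6 and 45.4 normalised reads in LCHADD females and 25.0, 18.3 and 21.6 in LCHADD males, against 119.7, 146 and 138 in WT females and 108, 81.4 and 129 in WT males. LCHADD female 3 was the highest LCHADD library and still below every WT library. Ramp1 differed by -2.60 ± 0.35 on the log2 scale in females (adjusted p = 4.8e-05) and -2.23 ± 0.35 in males (adjusted p = 0.00058). The mean, -2.41, was the 39th largest fall of 13865 genes. In reads corrected for depth, the LCHADD level was 0.183 of WT in females (95% counting interval 0.141 to 0.236) and 0.200 in males (0.149 to 0.265).

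The partner of Ramp1 and the sister subunit that makes Calcrl an adrenomedullin receptor had smaller differences. Calcrl had 272 ± 21.7 normalised reads in LCHADD and 362 ± 38.1 in WT (SD, n = 6 each), a log2 difference of -0.41 ± 0.08 (adjusted p = 0.0014), and Ramp2 had 232 ± 22.3 normalised reads in LCHADD and 317 ± 32.8 in WT, a difference of -0.45 ± 0.08 (adjusted p = 0.00053). Ramp3 did not pass (-0.25 ± 0.15, adjusted p = 0.21). Per kilobase, the ratio of Ramp1 to Calcrl was 0.0958, 0.0802 and 0.240 in LCHADD females and 0.166, 0.106 and 0.127 in LCHADD males, against 0.524, 0.625 and 0.695 in WT females and 0.529, 0.309 and 0.593 in WT males, with no overlap. The ratio of Ramp2 to Calcrl overlapped throughout, 1.13 to 1.37 in LCHADD libraries and 1.13 to 1.40 in WT libraries. Endothelial markers were lower for 5 of 7, beside 20.6% of all tested genes, with sums of 8799.5 to 10201 in LCHADD and 10961 to 12480.0 in WT. Of 9 mural cell markers 8 were tested and 7 were lower, beside the same share, with sums of 12983 to 19176 in LCHADD and 18362 to 20680.0 in WT. The part of endothelial and mural cells in the receptor values was not tested. The CGRP genes Calca and Calcb and the calcitonin receptor Calcr were at 0 in all libraries. Adrenomedullin (Adm) did not pass (-0.14, adjusted p = 0.39). Adrenomedullin 2 (Adm2, also intermedin), a ligand of the Calcrl receptors, had 103, 202 and 78.2 normalised reads in LCHADD females and 81.3, 50.4 and 72.8 in LCHADD males, against 2.35, 0 and 0 in WT females and 0, 0 and 0 in WT males. The 3 LCHADD females held 376 reads against 3 in the 3 WT females, a depth-corrected ratio of 156 (95% counting interval 53.0 to 760.1), and the 3 LCHADD males held 186 against 0, at least 67.9-fold higher with a floor of 3 reads over the WT group. Crcp, which encodes a component linked to CGRP receptor coupling, was higher (0.30, adjusted p = 0.032), a call lost in 7 of 22 alternative settings.

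**Figure D5:**
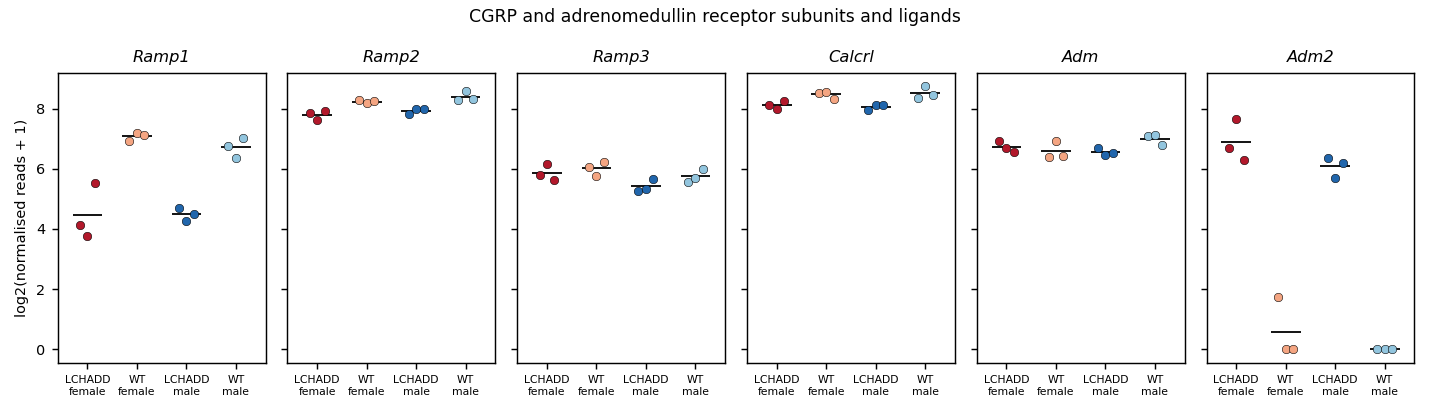
Log2(normalised reads + 1) of Ramp1, Ramp2, Ramp3, Calcrl, Adm and Adm2 in each library, in LCHADD females, WT females, LCHADD males and WT males from left to right on a shared axis; points are libraries and bars are group means (n = 3). Ramp1 separates by genotype far more than Ramp2 or Calcrl, and Adm2 is at 0 in 5 of the 6 WT libraries.

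No gene of the 12 passed the test for a genotype difference that depends on sex, and neither did any with edgeR. DESeq2 gave an adjusted p for Chrm2 alone of the 12 (0.67, not passing), so it could not call the others. At an unadjusted p under 0.05 there was 1 with limma (Maoa), 1 with edgeR and 2 with DESeq2. Over all tested genes 0.00721% passed. For 11 of the 12 genes, all but Adra2b, the female difference was the larger in size. Females also had more calls over all tested genes, 4692 against 2146 in males, so this need not be particular to the 12 genes.

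The LCHADD libraries differed in how far the 10 passing genes had moved. Relative to the WT mean of the same sex, the 8 lower genes had a median log2 value of -1.16, -1.90 and -1.06 in LCHADD females 1, 2 and 3 and -0.83, -0.67 and -0.84 in LCHADD males 1, 2 and 3, against -0.06 to 0.07 in WT libraries. These genes were picked as lower in the same libraries, with WT as the reference. The gap between genotypes thus follows from that choice, and only the spread among LCHADD libraries is described. LCHADD female 2 was the lowest LCHADD library for 6 of the 8 lower genes and the highest of its group for Grk5. That library also had the lowest sum of the 6 ventricular cardiomyocyte markers, 535205 normalised reads, beside 694190 and 795223 in LCHADD females 1 and 3; the part of this in the values was not tested. For each of the 8 genes named at the outset, the genes with the most similar log2 profile over the 12 libraries, by Pearson's r and as a description only since all share libraries and the genotype contrast, were Arhgef17 (r = 0.98) and Dglucy (r = 0.98) for Dbh, Cox6a1 (r = 0.99) and Reep6 (r = 0.99) for Maoa and Plcb3 (r = 0.98) and Tmem176b (r = 0.98) for Ramp1. They were Phldb1 (r = 0.98) and Grb2 (r = 0.97) for Adra1a, H2afv (r = 0.98) and Gm5860 (r = 0.98) for Adra1b and Ltbp3 (r = 0.95) and A730020M07Rik (r = 0.94) for Adrb1. For Grk5 they were Hist1h1c (r = 0.98) and Adprhl1 (r = 0.97), and for Chrm2 Angptl2 (r = 0.98) and Sh3rf2 (r = 0.98).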

How the data were processed

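Heart ventricle RNA was sequenced in 12 libraries, 3 per sex and genotype. Per the submitters' processing notes, bcl2fastq and DESeq2 were used with genome build GRCm39; no source used here gives the aligner, counter, annotation or strand setting. The deposited signal is the authors' counts scaled by a size factor for each library: dividing by the smallest step of each library gave whole numbers, within 0.01, for 100% of values. Symbols were matched to 51633 of 51912 Ensembl identifiers. Genes reaching 10 in at least 3 libraries (13865) were fitted as log2(value + 1) with limma 3.58.1 (4 group means, trend), p-values adjusted by Benjamini-Hochberg over all tested genes. Exon lengths came from a GENCODE annotation of GRCm38. Alternatives included edgeR 4.0.16 and DESeq2 1.42.0 on the recovered counts, other scalings, filters and added values, a replicate block and leaving out each library. The limma fit was also run on simulated data with far fewer changed genes than were called here, so no conclusion is drawn from that run. The genes and lists were chosen with earlier results of these data known. Some genes of this system are not reported here. All other chosen genes are named; from each list, up to 4 passing genes with the smallest adjusted p and up to 2 abundant others, plus close partners; Pde3b, Rrad, Gnai1, Kcnj5 and the single marker genes were added after their values were seen. Precision is limited by 15613668 to 23174936 reads per library.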

Additional observations from a re-analysis of the deposited data

How the results depend on the processing

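The number of the 12 genes passing was 10 in females, 7 in males, 10 in the mean of both sexes and 0 for the interaction of genotype and sex. Leaving out each library in turn gave 9 to 10 in females, 5 to 9 in males, 10 to 11 in the mean and 0 to 1 for the interaction, the 1 being Maoa without LCHADD female replicate 3. The other alternatives gave 9 to 10 in females, 6 to 9 in males, 9 to 10 in the mean and 0 for the interaction. For the interaction DESeq2 gave an adjusted p for Chrm2 alone of the 12 genes. With a replicate block the counts were 10, 6, 10 and 0, the male call of Grk5 not passing (adjusted p = 0.072). Same-numbered libraries did not deviate together over all tested genes (correlations of -0.106 to 0.0491). The labels do not say what the numbers mean, and a small shared effect, or one on few genes, could go unseen. Over all tested genes the males had 2146 calls, 1317 without LCHADD male 1 or WT male 3, 1332 without WT male 1 and 3342 with male libraries alone; the interaction had 1 call, 126 with DESeq2, 186 without LCHADD female 3 and 69 without LCHADD male 3. Asking also for a 1.5-fold difference left 1 gene passing for uptake and later breakdown, 0 receptor kinases and arrestins, 2 for Gs and cyclic AMP, 1 for Gq, 4 for Gi and GIRK, 1 for CGRP and adrenomedullin, 2 protein kinase A substrates and 0 other receptors. The share of all tested genes meeting both limits was not taken, so these counts have no general rate beside them. The CGRP and adrenomedullin gene left was Adm2, which was tested because of its LCHADD level. A filter at 50 left 0 for catecholamine synthesis and 0 for acetylcholine, since Ddc and Ache were no longer tested. Of 6872 values of 74 single genes under alternatives, 6447 kept their direction and side of the threshold, 137 changed sign without passing in either setting, 188 lost and 100 gained a call, and 0 reversed a call. Part of these values could not change direction. With no filter, a replicate block or libraries of the other sex left out, the difference within a sex is unchanged and only its adjusted p can move. The cause of the changes was not tested. Genes with few reads, Dbh in LCHADD hearts among them, are limited by depth.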

Other observations

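Transcripts that cyclic AMP and other stimuli induce were lower where they passed: 6 of 10 in the mean of both sexes (Nr4a1, Dusp1, Fos, Fosb, Per1 and Crem) were called, beside 20.6% of all tested genes, with a list median log2 difference of -0.69. In females 6 were lower, with Sik1 in place of Crem, beside 17.2% of all tested genes. In males 2 were lower (Nr4a1 and Dusp1), beside 7.77%. Fosb rested on few reads, 15 in LCHADD females and 8 in LCHADD males, against 91 in WT females and 25 in WT males. Nr4a1, an immediate early nuclear receptor, had 164, 195 and 432 normalised reads in LCHADD females and 294, 193 and 254 in LCHADD males, against 1434, 1186 and 1268 in WT females and 1122, 523 and 598 in WT males. Its log2 difference in the mean of both sexes was -1.98 ± 0.22 (limma adjusted p = 5.2e-06). Dusp1, a phosphatase of MAP kinases, differed by -1.05 ± 0.16 (adjusted p = 0.00012), Fos by -1.88 ± 0.40 (adjusted p = 0.0017) and the clock gene Per1 by -1.20 ± 0.26 (adjusted p = 0.0017). Ppargc1a (0.35, adjusted p = 0.059) and Sik1 (-0.23, adjusted p = 0.059) did not pass in the mean, and passed there in 6 and 7 of 22 alternative settings.

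Of 15 other G protein-coupled receptors of the heart that were tested, 3 were higher (Ednra, Ednrb and Agtr1a) and 3 lower (S1pr1, S1pr3 and Adora2a), shares near the 20.3% and 20.6% of all tested genes. Ednra and Ednrb, the endothelin receptors, differed by 0.30 ± 0.06 (adjusted p = 0.0013) and 0.38 ± 0.09 (adjusted p = 0.0041). The sphingosine-1-phosphate receptors S1pr1 and S1pr3 differed by -0.55 ± 0.08 (adjusted p = 8.9e-05) and -0.31 ± 0.07 (adjusted p = 0.0018). The apelin receptor Aplnr (-0.22, adjusted p = 0.12) and the thrombin receptor F2r (-0.08, adjusted p = 0.38) did not pass.

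Among markers of other cells, the 6 macrophage genes had a median log2 difference of 0.04. Of 5 atrial genes 3 were tested and 1 (Bmp10, 4.10) was higher, beside 20.3% of all tested genes. Bmp10 had 8 reads in the WT females and 13 in the WT males, against 164 and 235 in LCHADD, so it was tested because of its LCHADD level. Of 5 chromaffin genes 1 was tested and did not pass, and none of 4 adipocyte genes was tested. The summed normalised reads were 1649.8 to 2274 in LCHADD and 1662 to 2282 in WT libraries for macrophages, 232 to 368 in LCHADD and 179 to 275 in WT for atrial cells, 10.4 to 26.3 in LCHADD and 4.32 to 26.9 in WT for chromaffin cells, and 0 to 15.8 in LCHADD and 0 to 14.5 in WT for adipocytes.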
